A study of Drosophila melanogaster with 8 samples.

Results

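The pericentric region of chromosome arm 2L was taken as all 1 kb windows of the 2L scaffold that start at 21000000 or beyond, up to the scaffold end at 23011544 (genome build dm3, positions counted from 1). It held 2012 of the 168744 windows in the deposited tables. A total of 1566 of these windows carried a mean input of at least 2 RPKM (reads scaled by window length and by the library total) and were tested, out of 117126 tested windows in the genome. The other 446 windows were under this input filter, and 240 of them had no read in any library. The rule uses position only. As the measure of H3K9me3, the log2 of (ChIP RPKM + 1) over (input RPKM + 1) is called enrichment, and the input had the genotype and replicate number of the ChIP library.

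Trimethylation of lysine 9 on histone H3 (H3K9me3) marks constitutive heterochromatin, the compact and repeat-rich chromatin around centromeres. It is written by methyltransferases such as Eggless and Su(var)3-9 and is bound by HP1 proteins, and domains of the mark spread along chromatin until they meet a boundary with gene-rich euchromatin. At the base of 2L the assembled euchromatic arm runs into pericentric heterochromatin, so the scaffold crosses such a boundary. Classical heterochromatic genes such as light and concertina are known from this part of the chromosome, as is the tandem array of histone genes. The tables carry no gene names, and no gene was placed on a window here.

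The flies carried the MTgal4 driver, which is active in female germ cells, with either the shW hairpin, taken as the control, or the shSov hairpin, named for Sov. The tissue was whole adult ovary, which also holds somatic follicle cells outside the reach of the driver. A lower value in such bulk tissue can come from fewer cells with the mark or from less of it per cell, and these cannot be told apart. The age of the flies is not given in the labels. Flies of both genotypes were given yeast before dissection. Each genotype had 2 ChIP libraries with an antibody to H3K9me3 and 2 inputs kept back from the lysates, and the level of Sov was not analysed here. The question was whether the level of the mark in the pericentric part of 2L, its arm-side limit and its fine pattern differed between shSov and shW.

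Library totals ran from 4208693 to 27962050 reads. Tested windows of the region held a median of 56 to 158 reads in the ChIP libraries and 81 to 199 reads in the inputs. The region took 3.23% and 3.12% of the ChIP reads in shW replicates 1 and 2, and 2.30% and 2.33% in the shSov replicates. Every 95% Wilson interval of these shares lay clear of those of the other genotype, though such intervals cover counting error only. The input shares were 1.32% and 1.36% in shW and 1.20% and 1.18% in shSov. Both shSov libraries thus lay below both shW libraries in ChIP and in input. An exact permutation of 2 libraries against 2, two-sided, returned p = 0.333 for ChIP and for input, the smallest value this design allows. Nothing in the labels says that replicates came from separate dissections, so the spread between them may be technical. The shW ChIP replicates differed most, with a chi-square of 5.15 per degree of freedom over the tested windows of the region, against 1.47 for the shSov ChIP replicates.

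In shW, the profile towards the centromere had 4 stretches. In the outer 4 bins of 100 kb, from 21 to 21.4 Mb, the 2-replicate mean enrichment lay between -0.52 and -0.40 on the log2 scale, below input. It then rose to 0.61 ± 0.16 (SD, n = 2) at 21.4 to 21.5 Mb and to 1.02 ± 0.13 at 21.5 to 21.6 Mb. Only 12 and 36 of the 100 windows in each of these bins were tested. Over the next 5 bins, from 21.6 to 22.1 Mb, it returned to values between -0.22 and 0.25. From 22.1 Mb onwards it climbed to 1.23 ± 0.25 in the first bin and stayed between 1.99 and 2.39 in the 8 bins from 22.2 to 23.0 Mb. No window beyond 23.0 Mb was tested.

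**Figure D1:**
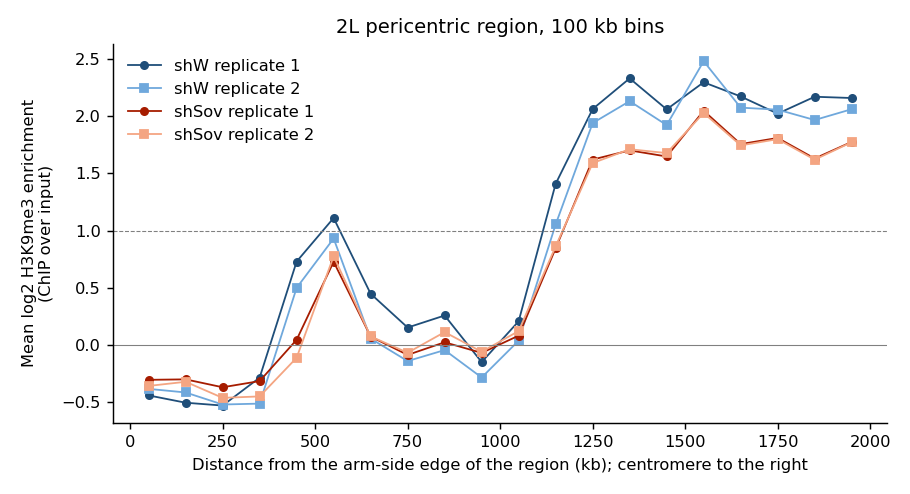
Mean log2 H3K9me3 enrichment of tested windows in 100 kb bins along the 2L pericentric region, 1 line per library (blue shW, red shSov), against distance from the arm-side edge. All 4 libraries rise in the bin from 22.1 Mb, and both shSov lines lie below both shW lines in each of the last 9 bins.

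In shSov the bins had the same order of stretches, except that the bin from 21.4 Mb stood at -0.03 ± 0.11 (SD, n = 2) and only that from 21.5 Mb, at 0.75 ± 0.034, stood out before 22.1 Mb. The 8 bins from 22.2 to 23.0 Mb lay at lower values in both shSov libraries. At 22.3 to 22.4 Mb, the bin with the largest difference among them, enrichment was 2.33 and 2.13 in shW replicates 1 and 2 and 1.70 and 1.71 in the shSov replicates. At 22.7 to 22.8 Mb, the bin with the smallest, it was 2.02 and 2.05 in shW and 1.81 and 1.80 in shSov. In the 9 bins from 22.1 Mb the difference between genotype means (shSov minus shW) ran from -0.52 to -0.23, with a median of -0.37. Both shSov libraries lay below both shW libraries in 9 of these 9 bins and in 11 of all 20 tested bins of the region, against 11.4% of the 1284 bins of the genome. In the 4 outer bins the shSov mean lay above the shW mean by 0.02 to 0.15, and both shSov libraries lay above both shW libraries in 3 of them, against 69.4% of bins genome-wide. On summed counts (edgeR, library totals) the log2 changes of these 4 bins were -0.016, 0.0047, 0.032 and -0.030 from the arm side inwards, and with TMM factors -0.13, -0.11, -0.081 and -0.14, so their direction was not settled.

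The region was then split at 22 Mb, a round position chosen with earlier results of these data known. On its centromere side (759 tested windows) mean enrichment was 1.81 and 1.67 in the shW replicates and 1.41 and 1.41 in the shSov replicates. The group means were 1.74 ± 0.10 and 1.41 ± 0.0024 (SD, n = 2), so the shSov mean lay -0.34 from the shW mean, farther than replicates lay from each other. On the arm side (807 tested windows) the values were -0.07 and -0.22 in shW and -0.13 and -0.15 in shSov. There the groups overlapped and the difference was 0.0043. For the centromere side p was 0.333, and for the arm side 1 (exact permutation, two-sided).

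In the step between both sides, a factor that scales a whole library cancels but for the pseudocount. A difference in background between ChIP libraries would not cancel, and it was not tested. The centromere-side mean minus the arm-side mean was 1.88 and 1.89 in shW and 1.53 and 1.56 in shSov. The step was therefore 0.34 lower in shSov on the log2 scale (1.88 ± 0.0087 against 1.54 ± 0.017, SD, n = 2; two-sided exact permutation p = 0.333, the smallest possible). This measure was added after the data were examined.

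The position of the boundary was set in each library as the split of the tested windows that left the smallest squared deviation from the mean on either side. It fell at 22130001 in shW replicate 1, at 22152001 in shW replicate 2 and at 22169001 in both shSov replicates. The split accounted for 65.9% to 71.5% of the variance of enrichment among the tested windows of a library. The mean shSov position lay 28.0 kb nearer the centromere than the mean shW position, while the shW replicates themselves lay 22 kb apart. The groups did not overlap (two-sided exact permutation p = 0.333). The shift was 11 kb over all windows with a read, 17.0 kb without shW replicate 1, and 19.5 kb with a pseudocount of 5, an input of at least 5 RPKM or the mean of all 4 inputs. With these last 3 settings shSov replicate 2, and over all windows with a read both shSov libraries, shared position 22152001 with shW replicate 2, and the exact permutation p was 0.667 and 1. When the boundary was instead the first of 2 neighbouring 100 kb bins at 0.5 or more, 3 libraries gave 22100001 and shW replicate 1 gave 21400001.

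In steps of 10 kb the rise was uneven. At 22.07 to 22.08 Mb all 4 libraries lay between 0.02 and 0.15. At 22.11 to 22.12 Mb enrichment was 1.26 and 0.64 in the shW replicates and 0.66 and 0.62 in shSov. At 22.12 to 22.13 Mb it was back at 0.52 and 0.09 in shW and 0.14 and 0.09 in shSov. At 22.15 to 22.16 Mb it was 1.81 and 1.44 in shW and 0.81 and 0.88 in shSov, so that only shW was past 1 there. At 22.16 to 22.17 Mb it was 1.47 and 1.07 in shW and 0.63 and 0.66 in shSov. At 22.17 to 22.18 Mb it was 2.01 and 1.64 in shW and 1.53 and 1.48 in shSov. At 22.18 to 22.19 Mb it was 1.99 and 2.09 in shW and 1.89 and 1.91 in shSov. The difference between genotype means was -0.78 at 22.15 to 22.16 Mb and -0.14 at 22.18 to 22.19 Mb. Large falls were not confined to the boundary. In centromere-side steps with at least 5 tested windows the difference ran from -0.99, at 22.88 to 22.89 Mb, to -0.06.

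**Figure D2:**
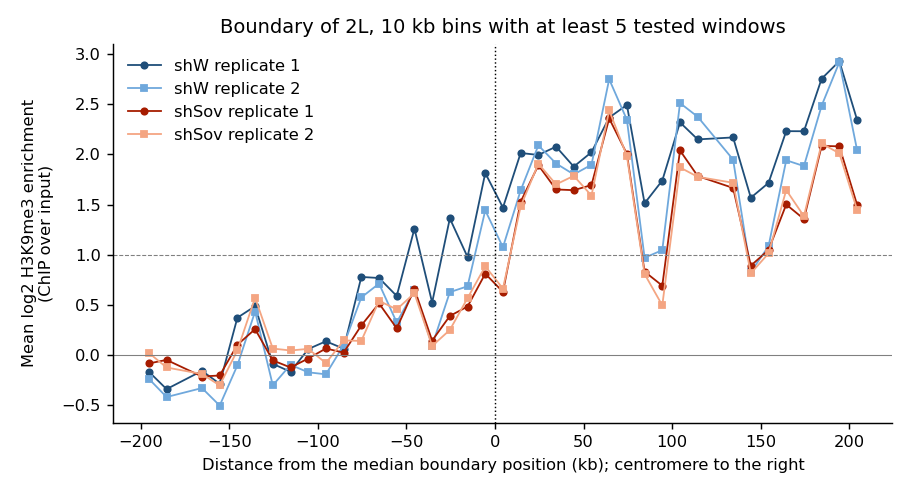
Mean log2 H3K9me3 enrichment in 10 kb bins with at least 5 tested windows, within about 200 kb of the median boundary position (dotted line), 1 line per library. The shW lines pass 1 (dashed) before the shSov lines, which pass it at 22.17 Mb, just on the centromere side of the dotted line.

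Windows counted as enriched had a log2 enrichment of at least 1 in both replicates of a genotype. In the region 584 windows (37.3% of those tested) were enriched in shW and 510 (32.6%) in shSov, against 7.23% and 5.80% of all tested windows. A total of 506 were enriched in both genotypes, 78 in shW only and 4 in shSov only. Those shared windows were 86.6% of the windows enriched in shW, against 76.8% over the whole genome (6505 of 8474). Windows that reached the threshold in shW alone made up 4.98% of tested windows in the region and 1.68% genome-wide (1969 of 117126). Windows that did so in shSov alone were 4 of 1566 in the region and 290 of 117126 genome-wide. Each single shSov library had 532 enriched windows, and the shW libraries had 702 and 590. Thinning all ChIP libraries and all inputs to equal depth left these counts at 535 and 531 in shSov and at 697 and 584 in shW.

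The share of enriched windows common to both genotypes was counted on each side of the boundary. Taking the median boundary position of the 4 libraries (22160501), the centromere side held 600 tested windows, of which 517 were enriched in shW and 477 (92.3%) of those also in shSov. The arm side held 966 tested windows, of which 67 were enriched in shW and 29 (43.3%) of those also in shSov. Over the whole genome this share was 76.8%. These windows were selected as high in shW and divided at a boundary set from the same enrichment values. The share also depends on how far windows lie above the threshold of 1, and the difference between the shares was not tested.

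**Figure D3:**
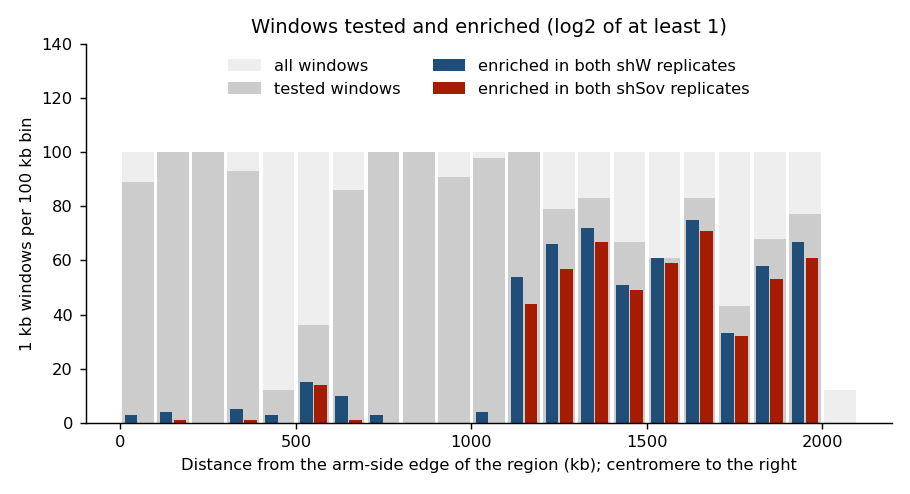
Number of 1 kb windows in each 100 kb bin (light grey), of tested windows (dark grey) and of windows enriched at a log2 value of at least 1 in both replicates of shW (blue) or shSov (red). The blue and red bars stand close together in the last 9 bins, and the bin from 21.4 Mb has 12 tested windows.

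Inside the heterochromatin the mark was uneven along the sequence. Of the 64 centromere-side bins of 10 kb with at least 5 tested windows, 56 lay at 1 or more in all 4 libraries. The lowest was at 22.74 to 22.75 Mb, with 0.94 and 0.37 in the shW replicates and 0.46 and 0.48 in shSov. The highest was at 22.37 to 22.38 Mb, with 2.78 and 3.06 in shW and 2.41 and 2.61 in shSov. The mean of shSov lay below that of shW in all 64 bins, by 0.06 to 0.99 on the log2 scale. The median window on the centromere side of the boundary stood at 2.23 and 2.16 in shW and at 1.80 and 1.84 in shSov. The shW replicates differed in the width of this spread: the central 80% of windows ran from 1.49 to 2.70 in replicate 1 and from 0.82 to 3.02 in replicate 2.

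Runs of enriched windows, joined over gaps of 1 window, describe the pattern as blocks. In shW, 20 runs reached 10 kb, all of them beyond 22 Mb, with a summed length of 443 kb. In shSov, 17 runs did, with 375 kb. These runs were found in the enrichment values themselves, so no test was made of their levels. The longest shW run, at 22315001 to 22378000, spanned 63 kb and held 60 windows enriched in shW and 56 enriched in shSov. Its mean enrichment was 2.51 and 2.34 in shW and 1.78 and 1.82 in shSov. The longest shSov run covered 44 kb of it, from 22334001 to 22378000. The second shW run, of 33 kb at 22169001 to 22202000, starts at the boundary of the shSov libraries. There 33 windows were enriched in shW and 32 in shSov, at mean enrichments of 2.01 and 1.88 against 1.66 and 1.68. The third, of 32 kb at 22916001 to 22948000, had means of 2.07 and 1.94 in shW and 1.66 and 1.63 in shSov. Next to the boundary, a 12 kb run at 22152001 to 22164000 had means of 2.11 and 1.83 in shW and 1.10 and 1.14 in shSov, and 7 of its 12 windows were enriched in shSov.

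On the arm side of the boundary the mark formed short islands. The longest untested stretch of the region, 126 windows from 21418001 to 21544000, lay between 2 groups of them. All of its windows were under the input filter, and 146 windows between 21 and 22 Mb had no read in any library. On its arm side, a 7 kb run at 21395001 to 21402000 had mean enrichments of 1.49 and 1.82 in shW and 0.72 and 0.70 in shSov, and 1 of its 7 windows was enriched in shSov. On its centromere side, a run at 21544001 to 21549000 had 1.72 and 2.07 in shW and 1.78 and 1.71 in shSov, where the genotypes overlapped. The next run, at 21554001 to 21560000, had 2.25 and 2.18 in shW and 1.72 and 1.75 in shSov, and 5 of its 6 windows were enriched in shSov. Farther in, a run at 21648001 to 21653000 had 1.59 and 1.16 in shW and 0.65 and 0.83 in shSov, with 0 windows enriched in shSov. All these islands were selected as high in both shW libraries. That choice favours lower shSov values, and their levels were not tested. Shorter shW runs went both ways: at 21592001 to 21595000, 3 of 3 windows were enriched in shSov, and at 21088001 to 21091000, 0 of 3.

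For single windows, the genotype-by-antibody interaction was fitted to the raw counts of all 8 libraries with edgeR (quasi-likelihood). At a Benjamini-Hochberg adjusted p under 0.05 over all tested windows, enrichment was lower in shSov in 11 of the 1566 windows and higher in 0. Genome-wide, 0.595% of windows were lower and 0.264% higher, so the share of lower windows in the region, 0.702%, was near that background. At an unadjusted p under 0.05 the region had 218 lower (13.9%) and 50 higher (3.19%) windows, against 4.45% lower and 9.30% higher of all tested windows. DESeq2, with its own size factors, called 25 windows lower and 0 higher, and limma called 2 lower and 0 higher. Genome-wide shares of these calls are not given here. The median log2 change of all tested windows was -0.014 by DESeq2, against 0.19 by edgeR, so the DESeq2 count rests on another centring. The edgeR count depended on the libraries in the fit: it rose without either shW replicate and fell without either shSov replicate. The log2 change of a called window need not move with it. At 22885001 it was -1.63 with all libraries, and -1.63 and -1.68 without shSov replicates 1 and 2. At 22086001 it moved more, from -1.20 to -1.82 and -0.89.

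The direction of the change was read over all tested windows. Library totals placed the median log2 change in enrichment of all tested windows at 0.19, and changes are given relative to that as well. On the centromere side of the boundary the median change was -0.35, or -0.54 relative to all windows. There 92.2% of the 600 windows were below 0, against 31.2% of all tested windows. Only 7.23% of all tested windows were enriched in shW, so this background is mostly unenriched chromatin. In 357 of these 600 windows (59.5%) the 2 shSov values were under the 2 shW values, against 12.1% of tested windows genome-wide, and in 3 windows they were above, against 34.6%. On the arm side the median change was 0.05, or -0.14 relative to all windows, and 45.9% of windows were below 0.

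The 5 windows with the largest fall lay in 4 places, and none of them passed the threshold without either shSov replicate. The windows at 22885001, 21397001 and 21400001 did not pass it after thinning or by limma either. At 22885001 to 22886000 the ChIP value was 35.2 and 20.2 RPKM in shW and 7.02 and 6.67 RPKM in shSov, with a log2 change in enrichment of -1.63 (edgeR adjusted p = 0.0023). Enrichment there was 2.30 and 0.96 in the shW replicates, and without shW replicate 1 the log2 change was -0.90 (edgeR adjusted p = 0.063). At 22159001 to 22160000, at the boundary itself, ChIP was 63.0 and 46.4 RPKM in shW and 19.0 and 12.8 RPKM in shSov (log2 change -1.53, edgeR adjusted p = 0.013). At 21089001 to 21090000, in the outer euchromatic bins, it was 29.5 and 32.1 RPKM in shW and 13.6 and 14.5 RPKM in shSov (log2 change -1.46, edgeR adjusted p = 0.0043). The other two lay in the 7 kb island before the untested stretch. At 21397001 to 21398000, ChIP was 41.1 and 47.3 RPKM in shW and 20.5 and 24.1 RPKM in shSov (log2 change -1.31, edgeR adjusted p = 0.031). At 21400001 to 21401000 it was 22.8 and 31.3 RPKM in shW and 10.96 and 10.9 RPKM in shSov (log2 change -1.30, edgeR adjusted p = 0.0092).

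Counts summed over 100 kb bins gave no call in the region. By edgeR's quasi-likelihood test 0 of 20 bins were lower and 0 higher at an adjusted p under 0.05, against 0.234% lower and 0% higher of the 1284 bins of the genome. At an unadjusted p under 0.05, 8 bins were lower and 0 higher, against 5.61% lower and 22.2% higher genome-wide, and 7 of the 8 were among the 9 bins from 22.1 Mb. DESeq2, with its own size factors, called 10 bins lower and 0 higher, and the genome-wide share of its calls is not given here. Its median log2 change over all bins was -0.0042, against 0.13 by edgeR. The smallest adjusted p was that of the bin from 21.4 Mb, with its 12 tested windows: the log2 change was -0.90 (edgeR adjusted p = 0.068). Across the edgeR alternatives the adjusted p of this bin ran from 0.0030 without shW replicate 2 to 0.64 without shSov replicate 2. The edgeR count of lower bins rose when either shW replicate was left out, and genome-wide shares of those fits are not given here. The median log2 change over all bins was then 0.11 without shW replicate 1 and 0.17 without shW replicate 2.

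ChIP and input were then read apart, since input also differed between genotypes. In the 9 bins from 22.1 Mb mean ChIP values ran from 27.8 to 40.0 RPKM in shW and from 18.2 to 26.3 RPKM in shSov. Input values over the same bins ran from 5.60 to 10.03 RPKM in shW and from 4.80 to 8.65 RPKM in shSov. At 22.3 to 22.4 Mb, for instance, ChIP was 41.8 and 38.3 RPKM in shW and 22.1 and 23.4 RPKM in shSov, and input was 7.09 and 7.18 RPKM in shW and 5.47 and 5.61 RPKM in shSov. Both shSov inputs lay below both shW inputs in 9 of 9 of these bins and in 18 of the 20 bins of the region, against 29.8% of bins genome-wide. Without the input, the mean log2 ChIP level of the 759 tested windows from 22 Mb was 0.52 lower in shSov.

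**Figure D4:**
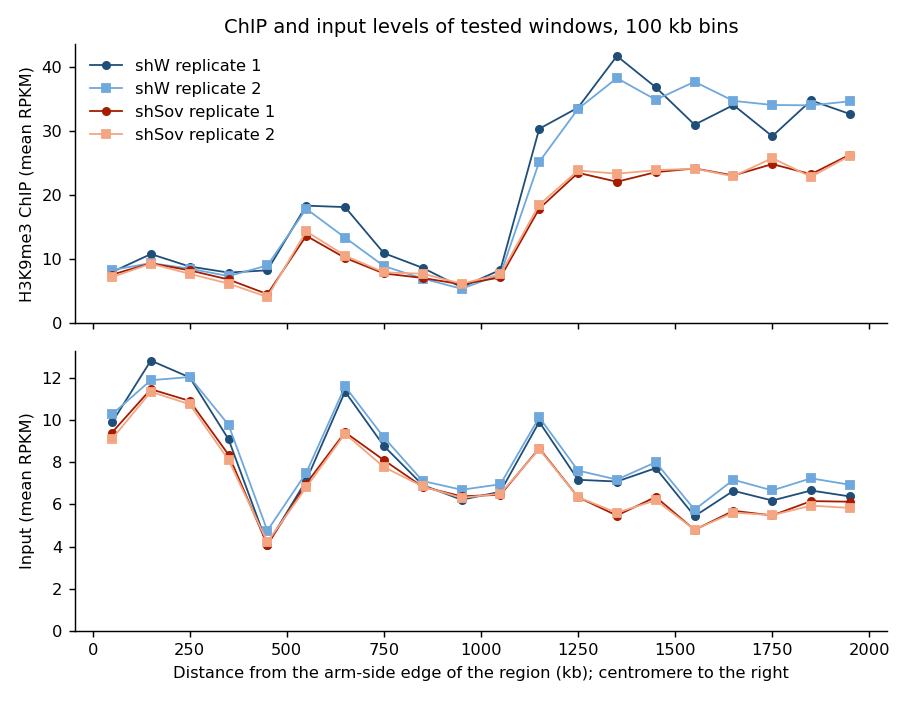
Mean RPKM of tested windows in 100 kb bins for H3K9me3 ChIP (top) and input (bottom), 1 line per library, against distance from the arm-side edge of the region. Both shSov lines lie below both shW lines in the last 9 bins of each panel, by more in the ChIP panel than in the input panel.

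By edgeR's quasi-likelihood test, input was lower in shSov in 55 windows of the region and higher in 2 at an adjusted p under 0.05, against 0.662% lower and 0.695% higher of all tested windows. Of the 55, 31 lay on the centromere side of the boundary. By edgeR, 0 of the 20 bins were called lower or higher in input, against 0.312% and 0.857% of all bins. At an unadjusted p under 0.05, 11 bins were lower and 0 higher in input, against 6.70% lower and 6% higher of all bins. Without shSov replicate 1 or 2 the count of lower windows was 4 or 2, and without shW replicate 1 it was 213. The part of the lower input in the ChIP difference was not tested.

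The 2L region was set beside the 2 Mb nearest the centromere of 3L, 3R and X. Mean enrichment over the 1343 tested windows of 3L was 1.41 and 1.33 in the shW replicates and 1.21 and 1.20 in shSov. The change on 2L, -0.16, and that on 3L, -0.16, differed by 0.0025 (exact permutation p = 1, two-sided, and 1 adjusted over 3 arms). The gap between the shW replicates was wider than this, and that between the shSov replicates was narrower. Per library, the 2L mean minus the 3L mean was -0.57 and -0.63 in shW and -0.60 and -0.60 in shSov. On 3R and X the means were 0.13 and 0.18 higher in shSov, from shW means of -0.31 and 0.05. The distal autosomal arms were 0.18 higher by the same library totals. Relative to them, the change was -0.34 on 2L, -0.35 on 3L, -0.06 on 3R and 0.00043 on X. The change on 2L differed from those on 3R and X by -0.29 and -0.34, with both shSov libraries below both shW libraries (two-sided exact permutation p = 0.333 each, 0.50 adjusted over 3 arms, the smallest this design allows being 0.333). These stretches held unlike levels of the mark in shW, with means of 0.77 on 2L, 1.37 on 3L, -0.31 on 3R and 0.05 on X. Enriched windows alone were not compared between arms, so a different response of their heterochromatin was not tested. Split by the same rule, 3L had its boundary at 23006001 in shW replicate 1 and at 23008001 in the other 3 libraries. On X the split fell at 21384001 and 21041001 in shW and at 21016001 and 21041001 in shSov, with overlapping steps of 0.61 and 0.50 against 0.44 and 0.52. The step on 3L was 2.46 and 2.35 in shW and 1.94 and 1.93 in shSov, and on 2L 2.12 and 2.19 in shW and 1.80 and 1.80 in shSov. Arm-side means of these splits were -0.29 and -0.29 in shW and -0.13 and -0.13 in shSov on 3L. On 2L they were -0.01 and -0.15 in shW and -0.06 and -0.07 in shSov. The equal changes of -0.16 on 2L and 3L are thus averages over unlike parts.

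**Figure D5:**
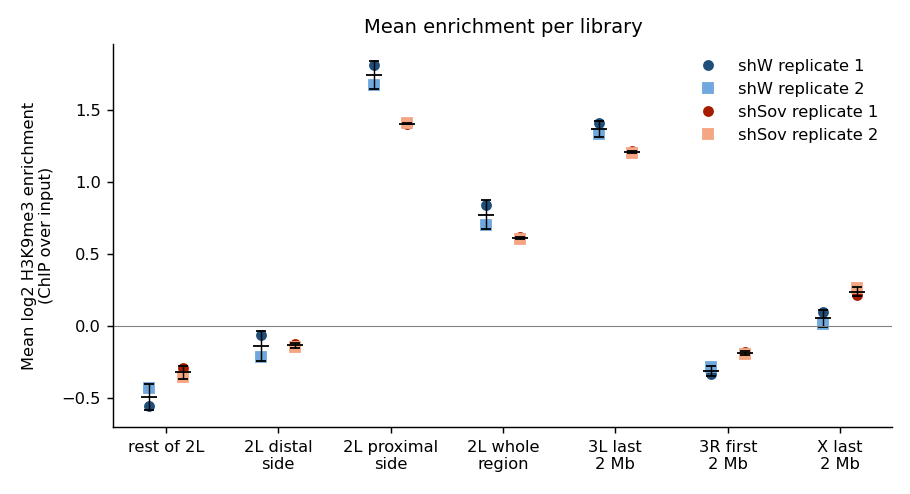
Mean log2 H3K9me3 enrichment per library (points) with the genotype mean and SD (black bars, n = 2) for the rest of 2L, both sides of the 2L pericentric region, the whole region and the 2 Mb nearest the centromere of 3L, 3R and X. The centromere side of 2L and the 3L stretch lie lower in shSov, and the rest of 2L, 3R and X lie higher before the shift of the distal autosomal arms is taken off.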

How the data were processed

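The submitters' processing notes name genome build dm3, Bowtie and bedtools, without versions; the treatment of multi-mapping and duplicate reads is not given in the sources used here. Per the labels' protocols, libraries were read from one end on a HiSeq system. The authors deposited, for 168744 windows of 1 kb in each of 8 libraries, the raw read count and the RPKM; the RPKM equalled the deposited count divided by window length and library total. No spiked-in reference is described, so differences between genotypes are relative.

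Windows with a mean input of at least 2 RPKM were tested, and 100 kb bins with at least 10 such windows. Replicate 2 is the library marked as a repeat. The main test was the quasi-likelihood F-test of edgeR 4.0.16 on counts of all 8 libraries (genotype, antibody and interaction; library totals as offsets; no block), with Benjamini-Hochberg adjustment over all tested windows or bins. DESeq2 1.42.0 and limma 3.58.1 (log2 ratios, pseudocount 1) were alternatives. Library values went into exact permutation tests, two-sided (scipy 1.17.1). Scripts were tested on simulated data. Windows named singly are the 5 largest falls past the threshold, and no window had a rise past it; 3 longest shW runs and the runs beside the boundary are named too, and other runs, 10 kb steps and the windows with more input in shSov were chosen after their values were seen. Region, split and tests were chosen with earlier results of these data known. Sequences and gene annotation were not used here.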

Additional observations from a re-analysis of the deposited data

How the results depend on the processing

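The differences in mean enrichment of the region (-0.34 to -0.09) and of its centromere side (-0.52 to -0.27), the step (-0.41 to -0.22) and the differences from 3R and X kept their sign under all alternatives run. The arm-side difference of 0.0043 became -0.0034 with a pseudocount of 5, -0.0026 over all windows with a read, -0.18 after centring on the distal autosomal arms, -0.12 against the mean of all 4 inputs, -0.091 from summed RPKM, and -0.070 to 0.079 when 1 replicate was left out. The difference from 3L of 0.0025 became -0.0081 with a pseudocount of 5, -0.015 at an input of at least 5 RPKM, -0.13 against the mean of all 4 inputs, -0.00075 after thinning, -0.061 from summed RPKM, and -0.030 to 0.035 with 1 replicate left out. The 11 windows with lower enrichment became 17 with TMM factors, 30 over all windows with a read, 21 with totals of the distal autosomal arms, 4 after thinning, 25 by DESeq2, 2 by limma, and 0 to 270 with 1 replicate left out. Windows with higher enrichment became 2 over all windows with a read and 0 to 23 with 1 replicate left out. The 55 windows with lower input became 33 at an input of at least 5 RPKM, 18 after thinning and 2 to 213 with 1 replicate left out, and the 2 with higher input became 0, 1 and 1 to 14. The 0 lower bins became 1 with TMM factors, 1 with a lysate block, 1 with totals of the distal autosomal arms, 10 by DESeq2 and 0 to 13 with 1 replicate left out, and the 0 higher bins became 0 to 1. In leaving out a replicate, the lone library of an arm is assumed to vary like the other groups. Genome-wide shares of the calls under these alternatives are not given here, so the counts do not set the region apart.

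Log2 changes of single arm-side bins changed sign as follows. The bin from 21 Mb became 0.0036 over all windows with a read. The bin from 21.1 Mb became -0.11 with TMM factors, -0.097 with distal arm totals, -0.0072 after thinning and -0.14 by DESeq2. The bin from 21.2 Mb became -0.081, -0.068 and -0.11 with TMM factors, distal arm totals and DESeq2. With 1 replicate left out, the bin from 21.1 Mb ran from -0.040 to 0.052, that from 21.2 Mb from -0.0083 to 0.068, that from 21.3 Mb from -0.13 to 0.078, that from 21.7 Mb from -0.33 to 0.025, that from 21.8 Mb from -0.21 to 0.13, and that from 22 Mb from -0.15 to 0.058. The causes were not tested.

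Libraries with the same replicate number did not deviate together (r = -0.026 over all tested windows, 0.089 in the region). These values cannot show whether such libraries shared a dissection or a batch. The labels do not say whether an input belongs to the ChIP library of the same number. With the replicate number as a block, 9 windows were lower in enrichment and 35 in input. Depth limits single windows: the median window held 56 or 57 ChIP reads in the shallowest library of each genotype.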

Other observations

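A pair of windows of the region had almost no input reads in shW and more in shSov, by a rule chosen after the values were seen (at most 3 input reads in all of one genotype and at least 50 in the other). At 21738001 to 21739000 the shW inputs held 1 and 0 reads and the shW ChIP libraries 0 and 0. In shSov the inputs held 119 and 128 reads there and the ChIP libraries 73 and 26. The windows on either side had 46 to 66 input reads in shW and 97 to 162 in shSov. In RPKM these were 3.36 to 5.64 in shW and 3.68 to 5.79 in shSov. Input at this window was called higher in shSov by edgeR's quasi-likelihood test (adjusted p = 8.5e-10). At 21043001 to 21044000, under the input filter and not tested, the shW inputs held 0 and 0 reads and the shSov inputs 25 and 28, or 0.894 and 1.06 RPKM. Its arm-side neighbour held 11 and 10 input reads in shW and 88 and 79 in shSov. In RPKM these were 0.80 and 1.02 in shW and 3.15 and 3.00 in shSov. The neighbour on the other side held 2 to 8 input reads in each library. The other window with input called higher in shSov, at 21394001 to 21395000, lies next to the 7 kb run before the longest untested stretch. Its inputs held 38 and 21 reads in shW and 154 and 139 in the more deeply sequenced shSov inputs. In RPKM these were 2.78 and 2.15 in shW and 5.51 and 5.28 in shSov (log2 change 1.10, edgeR adjusted p = 0.0040).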
